A study of Mus musculus with 6 samples.

Results

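The genes described are those of the heterotrimeric G proteins and of the RGS proteins that switch them off, in retinal ganglion cells (RGCs, the output neurons of the retina). They were found by a rule on gene symbols that uses no measured value: every G alpha (Gna), G beta (Gnb1 to Gnb5), G gamma (Gng) and numbered Rgs gene in the deposited table was taken. The rule found 36 genes in 39 rows, out of 10361 gene names in 11104 rows. They comprise 11 G alpha, 4 G beta, 8 G gamma and 13 RGS genes. Another 18 genes of these families, among them Gnat1, Gnat2, Gnb3, Gngt1, Rgs5, Rgs14 and Rgs16, were not analysed here.

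Poly-A RNA was sequenced from wild-type C57/6NCrl mice in 6 libraries, 2 in each of 3 groups. The adult control group received AAV2, a viral vector, with a scramble shRNA mimic and the red reporter mCherry. In the adult miR-1247 group the AAV2 expressed a miR-1247-5p mimic, again with mCherry. The third group was RGCs of embryonic day 18 (E18) with no vector. Each adult condition pooled 10 retinas and about 5000 cells that were caught on Thy1 antibody and then sorted for mCherry, so it was limited to mCherry-positive cells. About 50000 E18 cells were caught on Thy1 antibody without sorting. Age, vector, sorting and cell number therefore cannot be told apart between E18 and adult libraries. Nothing in the labels tells if the 2 libraries in a group were taken from different animals, so p-values are set against a spread between libraries that may be technical. In such bulk samples, fewer cells of a type and less RNA per cell cannot be told apart.

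A heterotrimeric G protein consists of an alpha subunit, which binds GTP, and a tightly joined pair of a beta and a gamma subunit. An activated receptor loads the alpha subunit with GTP, and the alpha subunit and the beta-gamma pair then act on adenylyl cyclases, phospholipase C, ion channels and exchange factors of small GTPases. RGS proteins speed GTP hydrolysis by the alpha subunit and so end the signal. In the retina this cycle is known best from phototransduction in rods and from the light response of ON bipolar cells. In neurons it carries the slow actions of glutamate, GABA, adenosine, opioids and monoamines.

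Values are FPKM, fragments normalised for transcript length and for mapped reads, which correct for length and so allow levels of different genes to be set side by side. Summed FPKM ran from 339224 to 392238 per library. Read depth was unknown, since counts were not used here. Pearson's r of log2(FPKM + 1) across genes was 0.980 to 0.985 between the libraries of a group, 0.960 to 0.962 between control and miR-1247, and 0.692 to 0.701 between E18 and adult libraries. All 16 RGC markers examined (among them Rbpms, Pou4f1, Thy1 and Nefl) passed the filter of a mean of at least 1 FPKM. Their summed level was 3860 to 3918 FPKM in control, 2381 to 2403 in miR-1247 and 6677 to 6678 at E18. Mitochondrially encoded genes took 4.43% to 10.4% of the FPKM in control, 12.9% to 19.1% in miR-1247 and 4.24% to 4.28% at E18.

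The microRNA that sets the adult groups apart is shown first, because a target site for its seed is the sequence feature the design bears on. The mature miR-1247-5p of RefSeq (GRCm38.p6, chr12:110278094-110278115, strand -) has 22 bases, and capitals mark its seed, bases 2 to 8.
miR-1247-5p: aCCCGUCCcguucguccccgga
A transcript pairs with this seed through GGACGGG (bases 2 to 8) or through GACGGGA (bases 2 to 7 followed by A), both searched on the sense strand of the GENCODE vM39 canonical transcript, in GRCm39. None of the 36 genes had either 7-base site, or the shorter GACGGG, in its 3′UTR, at a median 3′UTR length of 1754 bases. Among 9785 tested genes with a transcript, 5.09% had a 7-base site and 9.01% the 6-base site there, at a median length of 1490 bases. Upstream of the 3′UTR, 6 of the 36 genes (16.7%) had a 7-base site, beside 16.6% of the 9785 genes. These sites follow, with the match in capitals. Rgs19 carries it in the 5′UTR and the other 5 genes in the coding sequence of the canonical transcript. For Gnas that transcript begins at chr2:174139652. Whether other Gnas transcripts hold the match was not examined.
Rgs19, chr2:181335633-181335661, strand -: cgccggaccgtGGACGGGccctggcgata
Gnai3, chr3:108053230-108053258, strand -: aacttgcgggaGGACGGGgagaaagcggc
Gnaq, chr19:16293491-16293519, strand +: ctacgacagacGACGGGAatatcagttat
Gnas, chr2:174140931-174140959, strand +: atgccggagaaGACGGGAcagccccagga
Rgs9, chr11:109172319-109172347, strand -: cagaacccagaGACGGGAgtcagaatgca
Rgs12, chr5:35183251-35183279, strand +: tccacctcccaGACGGGAcatcctgtgtg
Of these 6 genes, Rgs19 was the one that passed the test with miR-1247, and its values are given with the RZ proteins. A match describes the sequence and does not show binding.

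The 3 comparisons were made in 1 linear model (limma) of log2(FPKM + 1) over all 6 libraries. Fold changes are on that scale, with their standard error (SE), and understate changes of weakly expressed genes. P-values were adjusted over all 9987 genes tested (Benjamini-Hochberg), and a gene is called higher or lower below 0.05. All 36 genes passed the filter. Gng13 did so by a narrow margin, with a mean of 1.01 FPKM, and Gng5 only through its E18 level.

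The G alpha set of RGCs was led by Gnas and Gnao1 at both ages, and the minor subunits changed places. Gnas encodes the stimulatory alpha subunit of adenylyl cyclase. It stood at 875 and 873 FPKM in control, 816 and 825 in miR-1247 and 902 and 934 at E18. Gnas made up 56.7% to 58.6% of all G alpha FPKM in every library. These values are for the whole assembled locus (chr2:174123024-174188537), and its transcripts were not separated. Gnao1 encodes Go, the abundant alpha subunit of neurons. Its levels were 303 and 319.7 FPKM in control, 289 and 286 in miR-1247 and 327 and 319 at E18, or 19.5% to 20.9% of the class. E18 and control values of Gnao1 overlapped, and neither gene was called between E18 and control (Gnas 0.07 ± 0.03 log2, adjusted p = 0.0943, and Gnao1 0.05 ± 0.04, adjusted p = 0.307).

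**Figure D1:**
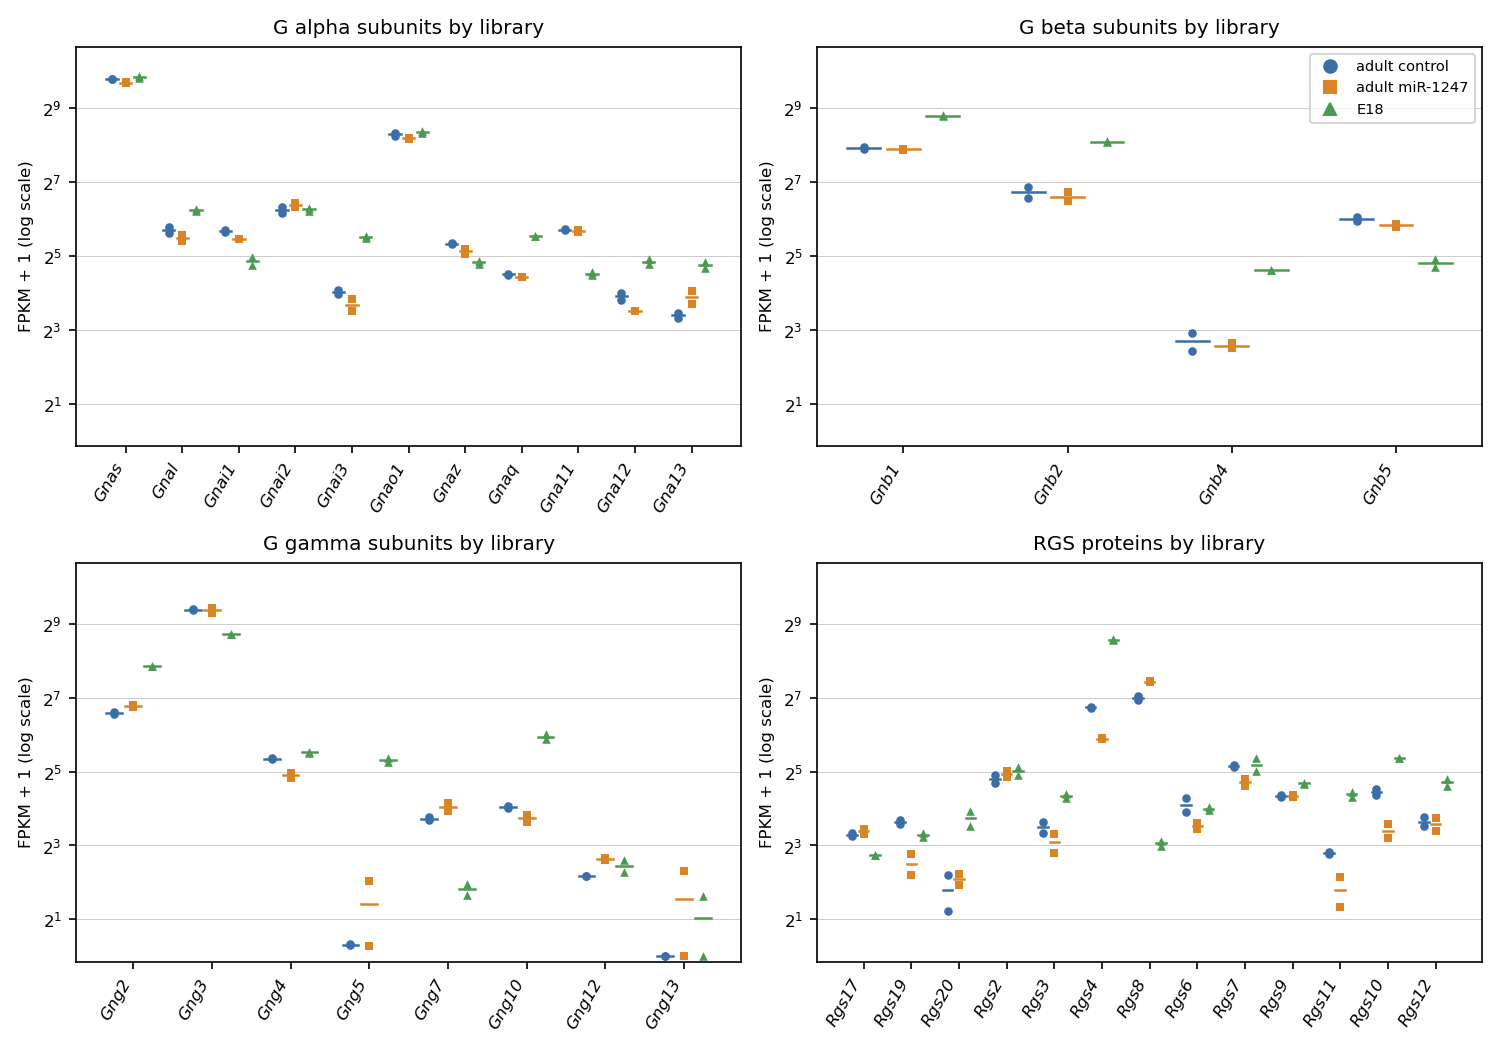
Levels of the 36 genes in each library, as FPKM + 1 on a log axis, in panels for G alpha, G beta, G gamma and RGS genes. Each point is 1 library and each bar the mean of 2; E18 points (triangles) lie well apart from both adult groups for Gnb4, Gng5, Gng10, Rgs4 and Rgs8, while the Gnas and Gnao1 points of all groups lie close together.

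Between E18 and adult control, 18 of the 36 genes were called higher and 8 lower at E18. This is 72.2% called, beside 70.1% of all genes tested (40.2% higher and 29.8% lower), so the share called is near the background. The 18 include Gng5, which had to differ to pass the filter. The median fold change was 0.45 log2 for the 36 genes and 0.16 for all genes tested. Of the G alpha genes, 5 were higher, 3 lower and 3 not called.

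Closely related alpha subunits differed in opposite directions. Gnaq and Gna11 encode the subunits that activate phospholipase C beta. Gnaq read 21.6 and 21.4 FPKM in control, 20.6 and 20.4 in miR-1247 and 45.4 and 45.1 at E18. Gna11 read 51.5 and 50.8 in control, 50.4 and 49.2 in miR-1247 and 21.1 and 22.6 at E18. E18 libraries lay above all adult ones for Gnaq and below all adult ones for Gna11. Gnaq was 2.05-fold higher at E18 than in control (1.04 ± 0.08 log2, adjusted p = 3.64e-05), and Gna11 was 2.28-fold lower (-1.19 ± 0.07, adjusted p = 1.6e-05). The share of Gnaq in the pair was 29.6% and 29.7% in control, 28.9% and 29.4% in miR-1247 and 68.3% and 66.6% at E18.

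The second shift was within the Gi subunits, which inhibit adenylyl cyclase. Gnai1 stood at 48.5 and 51.2 FPKM in control, 42.9 and 42.6 in miR-1247 and 26.0 and 30.3 at E18, and was called lower at E18 (-0.81 ± 0.09 log2, adjusted p = 0.000279). Gnai3 showed the opposite order, with 15.7 and 14.5 FPKM in control, 13.2 and 10.4 in miR-1247 and 43.6 and 45.7 at E18 (1.50 ± 0.13, adjusted p = 6.66e-05). Gnai2 stayed between 70.1 and 85.3 FPKM in all 6 libraries, with overlapping E18 and control values (0.02 ± 0.08, adjusted p = 0.847). The table holds Gnai3 as 2 loci at the same coordinates, which were summed. The locus with the higher mean, taken alone, read 7.17 and 6.76 FPKM in control, 3.58 and 5.15 in miR-1247 and 43.6 and 43.4 at E18, a difference of 2.48 log2 between E18 and control. The other locus went the opposite way, with 8.51 and 7.77 in control, 9.57 and 5.22 in miR-1247 and 0 and 2.28 at E18. Whether fragments were divided differently between the loci was not tested, and the Gnai3 values are uncertain to that extent. As a share of the 3 Gi genes, Gnai3 was 10.1% to 11.7% in control and 29.8% to 30.6% at E18.

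Of the other alpha subunits, 3 were higher and 1 lower at E18. Gna12 and Gna13, which act on exchange factors of small GTPases, were both higher at E18. Gna12 read 13.0 and 15.0 FPKM in control, 10.3 and 10.3 in miR-1247 and 29.1 and 26.3 at E18 (0.94 ± 0.12 log2, adjusted p = 0.000394). Gna13, the sum of 2 loci, read 8.96 and 10.0 in control, 11.8 and 15.4 in miR-1247 and 24.3 and 27.6 at E18 (1.36 ± 0.15, adjusted p = 0.000244). Gnaz, whose product Gz hydrolyses GTP slowly, fell from 39.4 and 39.0 FPKM in control to 26.5 and 28.2 at E18, with 35.5 and 31.9 in miR-1247 (-0.50 ± 0.09, adjusted p = 0.0019). For Gnal, the olfactory and striatal relative of Gnas, the locus also carries the name Chmp1b, so the signal of both genes is joined. It read 47.5 and 53.4 FPKM in control, 46.2 and 40.9 in miR-1247 and 72.4 and 76.4 at E18 (0.55 ± 0.09, adjusted p = 0.00163).

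Of the 4 G beta genes, 3 were higher and 1 lower at E18. The 4 genes together gave 426 and 401 FPKM in control, 384 and 398 in miR-1247 and 767 and 754 at E18. Gnb1, the leading beta subunit, read 245.5 and 236 FPKM in control, 237 and 231 in miR-1247 and 443 and 438 at E18 (0.87 ± 0.04 log2, adjusted p = 5.14e-06). Gnb2 read 115.6 and 93.1 in control, 87.6 and 104.5 in miR-1247 and 271 and 267 at E18 (1.37 ± 0.12, adjusted p = 7.7e-05). The assembled Gnb2 locus overlaps those of Pop7 and Gigyf1, which read 17.2 to 28.9 and 8.74 to 12.5 FPKM. Gnb4 was weak in adults, at 4.38 and 6.44 FPKM in control and 5.20 and 4.64 in miR-1247, and stood at 23.4 in both E18 libraries (1.95 ± 0.18, adjusted p = 0.000102). For each of these 3 genes, both E18 libraries lay above all 4 adult libraries.

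Gnb5, the divergent beta subunit that binds RGS proteins of the R7 subfamily in place of a gamma subunit, went the other way. Its levels were 60.6 and 65.2 FPKM in control, 54.1 and 57.3 in miR-1247 and 29.0 and 24.7 at E18. It was 2.30-fold lower at E18 than in control (-1.20 ± 0.10 log2, adjusted p = 5.15e-05), with no overlap between E18 and adult libraries. Its share of G beta FPKM was 14.2% and 16.3% in control, 14.1% and 14.4% in miR-1247 and 3.79% and 3.28% at E18. The share of Gnb1 was 57.6% to 61.7% in all 6 libraries.

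**Figure D2:**
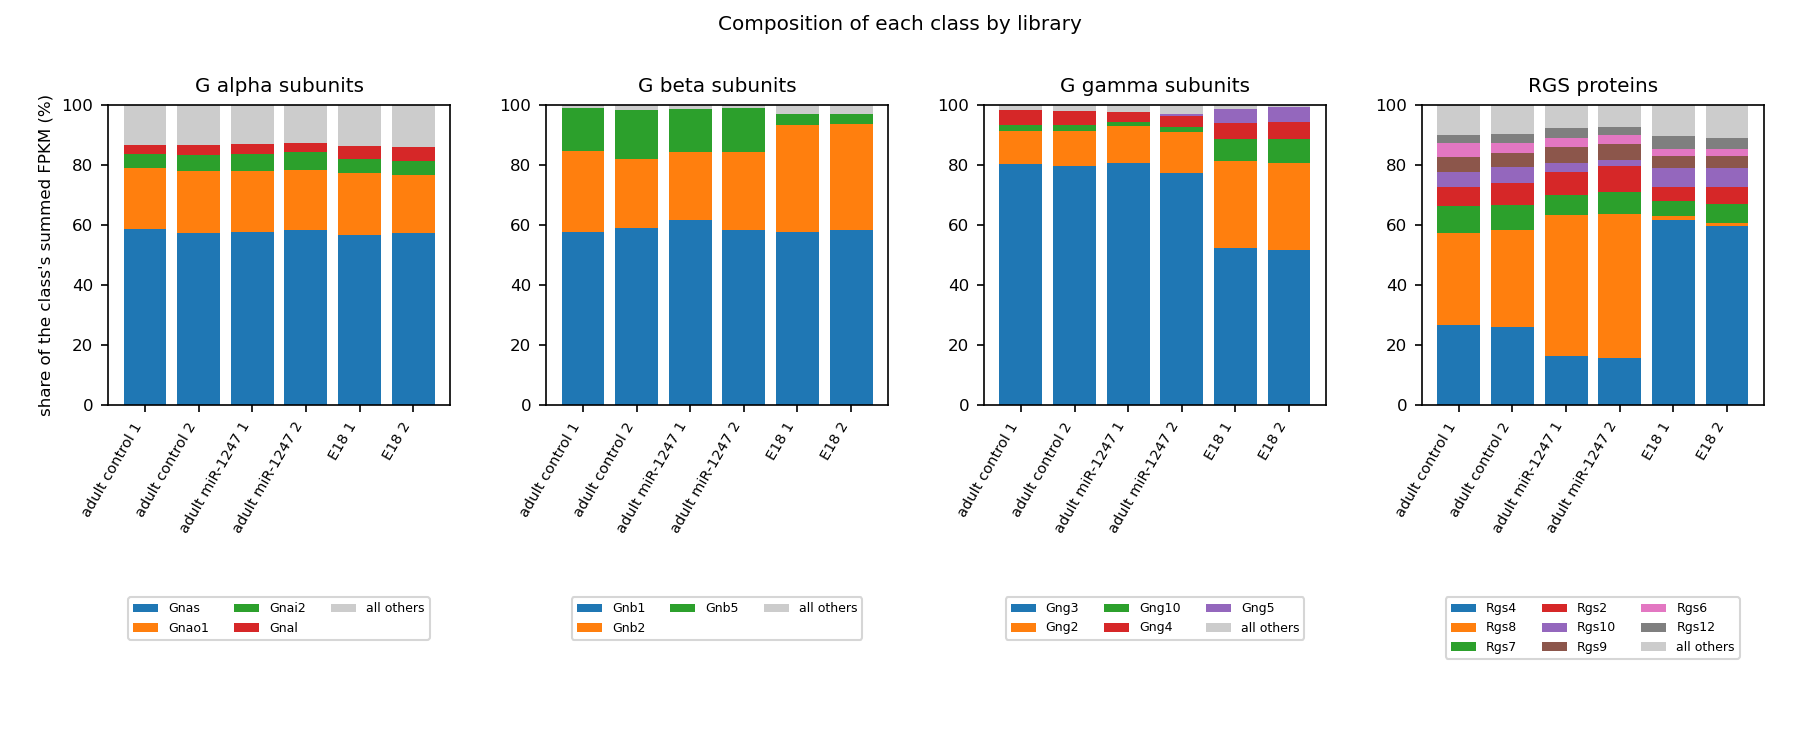
Stacked bars give the share (%) of each gene in the summed FPKM of its class in each of the 6 libraries, for G alpha, G beta, G gamma and RGS genes, with genes under 4% in every library joined as all others. The G alpha bars look alike in all libraries, Gng3 shrinks from 77.5% or more in adults to 52.4% or less at E18, and the RGS bars pass from Rgs8 and Rgs4 in adults to Rgs4 at E18.

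The G gamma genes kept a near-constant sum of 800.0 to 847 FPKM per library while their makeup differed with age: 3 were higher at E18, 2 lower and 3 not called. Gng3, a gamma subunit of neurons, led at both ages, with 672 and 659.8 FPKM in control, 683 and 626 in miR-1247 and 419 and 417 at E18 (-0.67 ± 0.05 log2, adjusted p = 3.05e-05). Its assembled locus overlaps the joint locus of Bscl2 and Hnrnpul2, which was at 73.3 to 106.4 FPKM. Gng2, which pairs widely with beta subunits, read 92.5 and 96.8 FPKM in control, 105.8 and 109.6 in miR-1247 and 231 and 232.5 at E18 (1.28 ± 0.05, adjusted p = 2.47e-06). Gng3 thus made up 77.5% to 80.6% of G gamma FPKM in adult libraries and 51.8% to 52.4% at E18, and Gng2 11.1% to 13.6% and 28.9%.

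Gng7, known as the partner of the striatal Gnal product, was an adult gene here. It read 11.9 and 12.6 FPKM in control, 14.2 and 16.7 in miR-1247 and 2.88 and 2.15 at E18, a 3.78-fold lower level at E18 than in control (-1.92 ± 0.16 log2, adjusted p = 6.29e-05). Gng10 read 15.8 and 15.3 in control, 11.5 and 13.2 in miR-1247 and 57.7 and 63.5 at E18 (1.90 ± 0.11, adjusted p = 9.85e-06), and its locus also carries the name Dnajc25. Gng4 and Gng12 were not called between E18 and control (0.18 ± 0.08, adjusted p = 0.0916, and 0.28 ± 0.17, adjusted p = 0.189). Gng12 stayed between 3.48 and 5.27 FPKM throughout.

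Gng5 was near 0 in 3 of 4 adult libraries, and its adult level is uncertain. The annotated gene lies at chr3:146205461-146211302 on the + strand and has 2 exons. It read 0.253 and 0.244 FPKM in control, 0.204 and 3.10 in miR-1247 and 37.6 and 40.1 at E18, a difference of 5.00 log2 between E18 and control (3.06 or 6.80 with a pseudocount of 5 or 0.1). This is given as a description, since a gene at its control level would not have passed the filter. The assembled locus overlaps that of Rpf1, a ribosome biogenesis gene, which read 26.9 and 33.4 FPKM in control, 9.91 and 9.60 in miR-1247 and 7.71 and 8.60 at E18. Rpf1 was lower at E18 than in control (-1.76 log2, adjusted p = 4.58e-05) and also with miR-1247 (-1.53, adjusted p = 0.00391). With miR-1247, Rpf1 was below its control level in both replicates, while Gng5 was above its own in replicate 2 and not in replicate 1. Whether fragments were divided differently between these loci in the groups was not tested. Gng13, the gamma subunit of ON bipolar cells and taste cells, was listed at 0 in 4 libraries and at 3.92 FPKM in miR-1247 replicate 2 and 2.13 in E18 replicate 1. It is counted as tested and not called, but no fold change is given, since both control libraries were listed at 0.

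The leading RGS gene was not the same at both ages. Of 13 RGS genes, 7 were higher at E18, 2 lower and 4 not called. Their summed FPKM was 394 and 405 in control, 360.5 and 364 in miR-1247 and 623 and 625 at E18. Most of it belonged to the R4 subfamily, small proteins of little more than the RGS domain, which gave 66.6% to 73.7% of RGS FPKM in all libraries.

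Within the R4 subfamily, Rgs4 and Rgs8 changed places. Both act on Gi/o subunits. The Rgs8 locus is chr1:153528771-153576069 (strand +, 7 exons) and that of Rgs4 chr1:169569046-169575211 (strand -, 5 exons). Rgs8 stood at 121 and 130.5 FPKM in control, 169.7 and 174 in miR-1247 and 7.75 and 6.89 at E18. Rgs4 stood at 104.9 and 105.7 in control, 58.8 and 57.5 in miR-1247 and 384 and 372.5 at E18. No group overlapped another for either gene, and the order of the groups was opposite. Rgs8 was 15.3-fold lower at E18 than in control (-3.93 ± 0.08 log2, adjusted p = 1.83e-07), and Rgs4 was 3.57-fold higher (1.84 ± 0.05, adjusted p = 4.76e-07). As a share of both genes, Rgs8 took 53.6% and 55.2% in control, 74.3% and 75.2% in miR-1247 and 1.98% and 1.82% at E18.

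Because these R4 genes of chromosome 1 moved in opposite directions, their promoter windows are shown (GRCm39, 250 bases before to 50 after the start of the GENCODE vM39 canonical transcript, 5′ to 3′ on the gene's strand). Capitals mark matches to 5 motifs, searched on either strand. The TATA box was searched as TATAAA, while the GC box, which binds Sp1, was searched as GGGCGG. For the E-box, bound by basic helix-loop-helix factors, the letters CANNTG were used. The cyclic AMP element was searched as TGACGTCA and the CCAAT box by the letters of its name.
Rgs4, chr1:169575169-169575468, strand -: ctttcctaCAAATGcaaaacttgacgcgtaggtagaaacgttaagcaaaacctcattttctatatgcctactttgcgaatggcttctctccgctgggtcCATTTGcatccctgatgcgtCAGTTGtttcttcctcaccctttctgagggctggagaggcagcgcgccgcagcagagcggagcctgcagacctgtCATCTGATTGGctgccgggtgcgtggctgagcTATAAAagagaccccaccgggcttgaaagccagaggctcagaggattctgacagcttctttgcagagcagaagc
Rgs8, chr1:153528521-153528820, strand +: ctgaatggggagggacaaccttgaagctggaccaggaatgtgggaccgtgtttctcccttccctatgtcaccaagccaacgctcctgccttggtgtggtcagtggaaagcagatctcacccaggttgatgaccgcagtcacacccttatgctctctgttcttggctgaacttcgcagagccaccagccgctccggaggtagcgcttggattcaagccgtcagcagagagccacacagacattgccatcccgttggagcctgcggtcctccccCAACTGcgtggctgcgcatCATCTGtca
The Rgs4 window holds 1 TATA box, 1 CCAAT box, 4 E-boxes and 13 CpG, and the Rgs8 window 2 E-boxes and 12 CpG, at a GC content of 53.0% and 58.0%. No matches in these windows overlap one another. Among 32544 RefSeq mouse promoters of the same length, 13.6% hold a TATA box, 37.4% a CCAAT box, 35.9% a GC box, 72.3% an E-box and 1.8% the cyclic AMP element, and the median number of CpG is 7. These matches describe letters only.

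The other R4 genes moved less. Rgs2, which favours Gq, ranged from 24.6 to 34.0 FPKM with overlap of all groups (0.22 ± 0.13 log2 between E18 and control, adjusted p = 0.16). Rgs3 read 11.4 and 9.15 FPKM in control, 8.96 and 6.00 in miR-1247 and 18.7 and 20.0 at E18, and was called higher at E18 (0.86 ± 0.20, adjusted p = 0.00704). That call was lost without E18 replicate 2 (adjusted p = 0.0582).

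The R7 subfamily joins Gnb5 in a stable complex and is held at the membrane by Rgs7bp or by the orphan receptor Gpr158. Rgs7 and Rgs6 were not called between E18 and control. Rgs7 read 35.4 and 33.9 FPKM in control, 23.6 and 27.1 in miR-1247 and 31.1 and 39.9 at E18 (0.02 ± 0.13 log2, adjusted p = 0.882). Rgs6 read 18.4 and 13.9 in control, 9.92 and 11.2 in miR-1247 and 14.5 and 15.3 at E18 (-0.10 ± 0.15, adjusted p = 0.586). E18 and control overlapped for both genes, while both miR-1247 libraries lay below the rest. Rgs11, known from ON bipolar cells, read 5.84 and 6.03 in control, 1.53 and 3.47 in miR-1247 and 20.7 and 18.9 at E18 (1.58 ± 0.26, adjusted p = 0.00165). Rgs9, which in photoreceptors ends the transducin signal, read 19.6 and 18.7 in control, 19.7 and 18.8 in miR-1247 and 25.0 and 24.4 at E18 (0.35 ± 0.09, adjusted p = 0.0111). The Rgs9 call was lost when libraries were scaled by median ratios (0.20, adjusted p = 0.0829) or to equal totals (0.27, adjusted p = 0.064), and at the threshold without E18 replicate 1 (adjusted p = 0.05).

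The partners of R7 proteins examined here (Gnb5, Rgs7bp and Gpr158) were all lower at E18, while none of the 4 R7 genes was called lower. Rgs9bp and Gpr179, also listed among the anchors and regulators, were not analysed here. Rgs7bp read 57.7 and 54.0 FPKM in control, 46.3 and 51.4 in miR-1247 and 3.72 and 3.97 at E18 (-3.55 ± 0.10 log2, adjusted p = 5.24e-07). Gpr158 read 53.0 and 54.0 in control, 40.4 and 38.4 in miR-1247 and 3.01 and 3.61 at E18 (-3.66 ± 0.11, adjusted p = 5.84e-07). Beside the values of Gnb5 given above, all 3 partners were called lower.

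**Figure D3:**
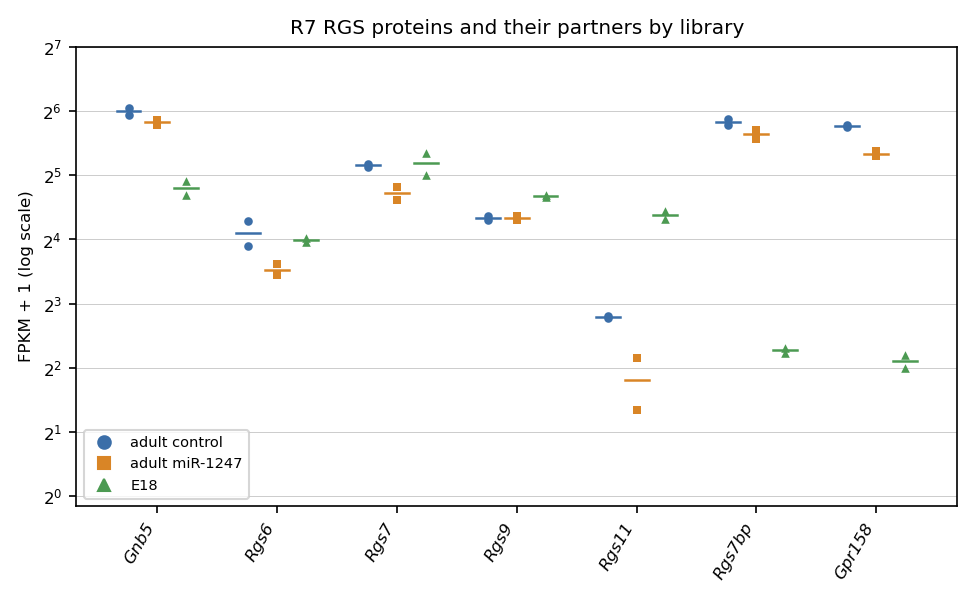
FPKM + 1 on a log axis for Gnb5, the R7 genes Rgs6, Rgs7, Rgs9 and Rgs11, and the membrane anchors Rgs7bp and Gpr158, with 1 point per library and a bar at the mean of 2. E18 triangles sit below the adult points for Gnb5, Rgs7bp and Gpr158 and above the control points for Rgs9 and Rgs11, while E18 and control points overlap for Rgs6 and Rgs7.

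Both R12 genes were higher at E18. Rgs10, a small protein also abundant in immune cells, read 19.8 and 22.0 FPKM in control, 10.9 and 8.12 in miR-1247 and 40.5 and 40.1 at E18 (0.92 ± 0.14 log2, adjusted p = 0.00122). Rgs12, a multidomain protein, read 10.4 and 12.6 in control, 12.4 and 9.51 in miR-1247 and 26.9 and 23.5 at E18 (1.07 ± 0.16, adjusted p = 0.0011). The 3 RZ genes, which act on Gz and Gi, differed among themselves. Rgs20 read 1.33 and 3.58 in control, 3.68 and 2.83 in miR-1247 and 10.6 and 14.4 at E18 (2.03 ± 0.34, adjusted p = 0.00162), and its locus overlaps that of Atp6v1h, which was at 53.6 to 86.3 FPKM. Rgs17 was lower at E18, at 5.69 FPKM in both libraries beside 9.06 and 8.51 in control and 9.98 and 8.86 in miR-1247 (-0.55 ± 0.13, adjusted p = 0.00912). Rgs19 was not called (-0.35 ± 0.20, adjusted p = 0.164).

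**Figure D4:**
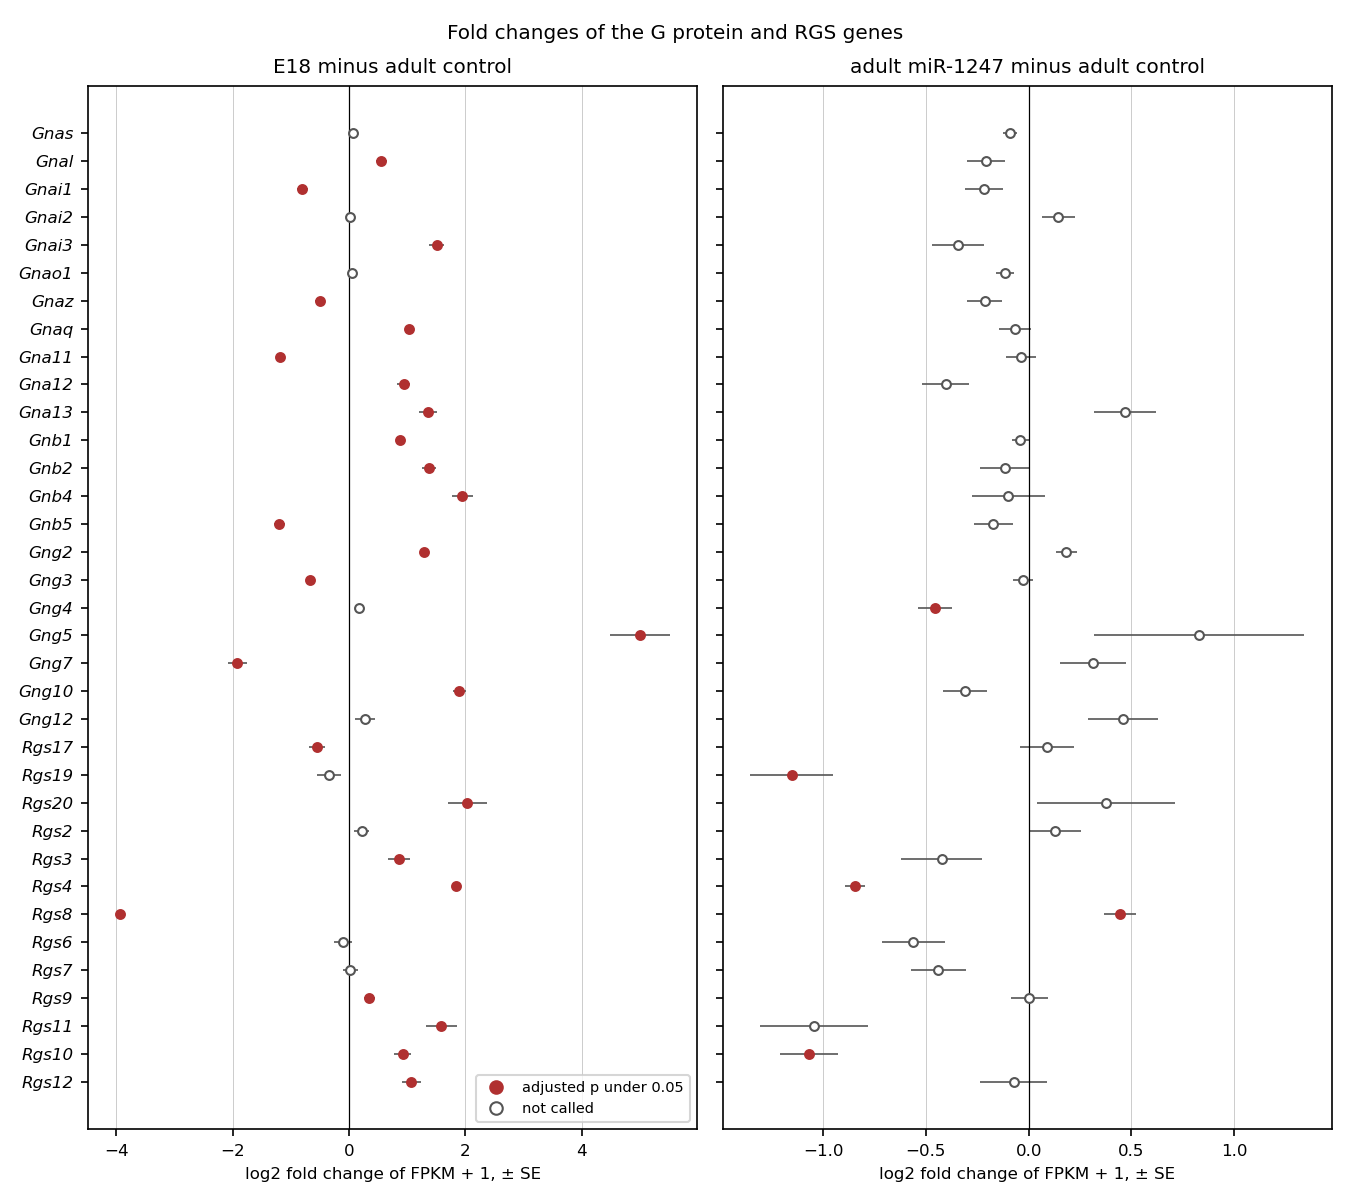
Log2 fold change of FPKM + 1 with its SE for each gene except Gng13, E18 minus adult control on the left and adult miR-1247 minus adult control on the right, on axes of different range. Filled points passed the test: 26 on the left, between -3.93 (Rgs8) and 5.00 (Gng5, which passed the filter only through E18), and 5 on the right, between -1.15 (Rgs19) and 0.45 (Rgs8).

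Markers of other retinal cells differed between E18 and control as well. Müller glia and astrocyte markers (4 of 5 lower, 1 higher at E18) summed to 1063 to 1409 FPKM in control and 166.9 to 167 at E18. Of 4 amacrine markers, Gad2, Slc6a9 and Npy were lower, with Gad2 at 81.2 and 82.5 FPKM in control and 0.682 and 1.03 at E18. Pax6 was higher (167 and 169 in control, 225.5 and 239 at E18) and made up nearly all of the list's E18 sum of 227 to 243 FPKM, beside 297 to 320.5 in control. The summed bipolar markers (2 of 2 lower) were at 25.2 to 30.0 FPKM in control and 10.5 to 11.3 at E18. Of 11 listed progenitor markers, Hes6 and Dapl1 were tested, and both were called higher at E18. Their sum was 18.6 to 19.5 FPKM in control and 49.5 to 52.9 at E18. Dapl1, listed at 0 in all adult libraries, passed the filter only through E18. Hes6 read 19.53 and 18.57 FPKM in control and 38.75 and 35.27 at E18. The others, among them Sox2, Ccnd1 and Mki67, were not analysed here. Gad2, Slc6a9, Npy and the bipolar marker Car8 passed the filter only through adult libraries. Of the 16 RGC markers, 12 were higher and 4 lower at E18. The part of these cells in the E18 results was not tested.

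With the miR-1247-5p mimic, 4 RGS genes and 1 gamma subunit gene passed the test. Rgs8 was called higher, and Rgs4, Rgs10, Rgs19 and Gng4 were called lower than in adult control. These 5 of 36 genes (13.9%) stand beside 9.75% of all genes tested, of which 3.53% were higher and 6.22% lower. The median fold change was -0.09 log2 for the 36 genes and -0.03 for all genes. All 15 G alpha and G beta genes were without a call, at fold changes from -0.40 (Gna12, adjusted p = 0.0766) to 0.47 (Gna13, adjusted p = 0.102).

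Rgs4 was 1.80-fold lower with miR-1247 (58.1 ± 0.97 FPKM, SD, n = 2) than in control (105.3 ± 0.54), at -0.85 ± 0.05 log2 (adjusted p = 0.00109). It was the one of these 5 calls that held under all 10 other settings and without each library in turn, with adjusted p between 0.000956 and 0.0279. Rgs8 was 1.36-fold higher (171.9 ± 3.08 beside 126 ± 6.44 FPKM), at 0.45 ± 0.08 log2 (adjusted p = 0.0237). The Rgs8 call was lost without any 1 of the 4 adult libraries (adjusted p between 0.0722 and 0.121), with equal library totals (0.34, adjusted p = 0.0832) and with no variance trend (adjusted p = 0.0712). In both genes the control and miR-1247 libraries did not overlap.

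Rgs10 fell from 20.9 ± 1.60 FPKM to 9.51 ± 1.96 (-1.07 ± 0.14 log2, adjusted p = 0.0124). The Rgs10 call was lost without either control or either E18 library, at adjusted p between 0.0516 and 0.0655. Rgs19, with 11.9 and 11.0 FPKM in control, 3.61 and 5.80 in miR-1247 and 8.43 and 9.14 at E18, was 2.22-fold lower (-1.15 ± 0.20, adjusted p = 0.0235). When 1 library was left out, its call held without miR-1247 replicate 2 and was lost without each of the others (adjusted p between 0.0694 and 0.0935). The assembled Rgs19 locus overlaps that of Tcea2, which read 19.2 and 22.7 in control and 15.5 and 16.0 in miR-1247 (-0.38 log2, adjusted p = 0.225). Gng4 read 40.1 and 39.4 FPKM in control, 27.2 and 30.3 in miR-1247 and 44.5 and 45.6 at E18 (-0.46 ± 0.08, adjusted p = 0.0239). The Gng4 call was lost without any 1 of the 6 libraries, at adjusted p between 0.0635 and 0.104, and with no variance trend (adjusted p = 0.0627). With only the 4 adult libraries in the fit, Rgs10, Rgs19 and Gng4 did not pass either, at adjusted p of 0.0522, 0.0676 and 0.0606.

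Several further regulators had lower values without passing the test. Rgs11 was 2.06-fold lower (-1.04 ± 0.26 log2, adjusted p = 0.0555). It passed with a pseudocount of 5, with equal totals and without miR-1247 replicate 2 (-1.45, adjusted p = 0.0365). Rgs6 and Rgs7 stood at -0.56 ± 0.15 (adjusted p = 0.0677) and -0.44 ± 0.13 (adjusted p = 0.0877), and both passed with equal totals. Gng2 had a higher value (0.18 ± 0.05, adjusted p = 0.0703) and passed with median ratio scaling. For Gng5, 1 library decided the value: it was 1.71 log2 higher without miR-1247 replicate 1 (adjusted p = 0.0333) and -0.05 without replicate 2. Rgs9, Rgs2, Rgs17, Rgs12 and Rgs20 had fold changes from -0.07 to 0.38, all without a call. Rgs3, Gng3, Gng7, Gng10 and Gng12 had fold changes from -0.42 to 0.46, also without a call. The other 5 of the 6 genes with a seed match upstream of the 3′UTR were not called: Gnai3 -0.34, Gnas -0.09, Rgs12 -0.07, Gnaq -0.07 and Rgs9 0.00 log2.

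The direction of calls depended on scaling. With libraries scaled by median ratios, 2 of the 36 genes were higher and 4 lower with miR-1247, and 46.7% of the calls over all genes were higher. With equal totals, 0 were higher and 7 lower, and 15% of all calls were higher, in place of 36.2% as deposited. The median over all genes moved from -0.03 to 0.00 and to -0.12 log2.

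Other measures moved with the miR-1247 group. All 16 RGC markers were called lower with miR-1247 than in control, at a median of -0.79 log2. The summed level of 5 Müller glia and astrocyte markers was 1063 to 1409 FPKM in control and 1713 to 1825 in miR-1247, with 1 of 5 (Dkk3) called higher. This sum depended on Glul, which had the largest difference of the 5 and was not called (adjusted p = 0.116). Glul read 463.5 and 121.8 FPKM in control and 795.5 and 631.6 in miR-1247. Aldoc read 511 and 530.1 in control and 508.6 and 535.5 in miR-1247. The summed level of 4 amacrine cell markers was 297 to 320.5 and 394 to 434 FPKM, with 1 of 4 (Pax6) called higher. Pax6 read 166.8 and 168.9 FPKM in control and 220.4 and 228.9 in miR-1247 (adjusted p = 0.00871). Gad2, Slc6a9 and Npy were not called (adjusted p = 0.0835, 0.474 and 0.355). Of 2 rod markers, 1 was called lower, and their list summed to 45.7 to 46.8 and 24.3 to 26.9 FPKM. Bipolar markers (2 tested, none called) summed to 25.2 to 30.0 and 37.0 to 40.4 FPKM, and oligodendrocyte markers (1 of 2 called higher) to 35.4 to 36.8 and 47.7 to 51.2. The defining glial markers Rlbp1, Slc1a3, Aqp4 and Gfap, the amacrine markers Gad1, Slc32a1 and Tfap2a, and all markers listed for cones, microglia and vessels were not analysed here. The part of these markers and of the mitochondrial share in the results for Rgs4, Rgs8, Rgs10, Rgs19 and Gng4 was not tested.

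Set beside the other comparisons, with which it shares its libraries, E18 minus adult miR-1247 had 24 of the 36 genes called higher and 8 lower. That is 88.9%, beside 69.9% of all genes (41.5% higher and 28.4% lower). The median was 0.70 log2 for the 36 genes and 0.19 for all genes. Rgs4 was 6.42-fold higher at E18 than in miR-1247 (2.68 ± 0.05 log2, adjusted p = 1.22e-07), and Rgs8 was 20.8-fold lower (-4.38 ± 0.08, adjusted p = 1.22e-07). Rgs10 was 3.96-fold higher (1.99 ± 0.14, adjusted p = 3.11e-05) and Rgs11 6.19-fold higher (2.63 ± 0.26, adjusted p = 0.00015). Gng4 and Rgs19 were called here as well (0.63 ± 0.08, adjusted p = 0.000476, and 0.80 ± 0.20, adjusted p = 0.0107), the second not without either E18 library. Gnas, Gnao1, Gnaz, Rgs6, Rgs7 and Rgs9 were also called, at -0.29 to 0.46 log2, and each of these 6 calls was lost under at least 1 other scaling.

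The rest of the G protein pathway was described through 161 listed genes, of which 82 could be tested. Between E18 and control, 26 of the 82 were higher and 46 lower, at a median of -0.56 log2 beside 0.16 for all genes. Here and between E18 and miR-1247, the lower calls include Rasgrf1, Kcnj5, Itpr1, Adra2c, Adrb1 and Adra1b. These passed the filter only through the adult libraries and so had to differ. Over all genes tested, 40.2% were higher and 29.8% lower. With miR-1247, 2 were higher and 9 lower (median -0.09, beside -0.03), where 3.53% of all genes were higher and 6.22% lower. These 11 calls became 8 with the replicate block and 2 to 5 without any 1 library. Of the 8 named below, Adcy1 and Adora1 held without each library in turn, and the others did not. Between E18 and miR-1247, 29 were higher and 43 lower (median -0.42), beside 41.5% and 28.4% of all genes.

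Of 26 effectors, 7 were called higher and 16 lower at E18. The lower calls include Rasgrf1, Kcnj5 and Itpr1, which had to differ to pass the filter. Kcnj5 averaged 0.542 FPKM at E18 and Itpr1 0.579, so both passed only through the adult libraries. Kcnj9, a potassium channel subunit opened by beta-gamma, read 89.6 and 88.1 FPKM in control, 118.4 and 115.7 in miR-1247 and 1.97 and 2.49 at E18 (-4.80 ± 0.10 log2, adjusted p = 1.89e-07). Rasgrf1, a Ras exchange factor, read 120.4 and 112.7 in control and 0.264 in both E18 libraries, a difference of -6.54 log2. This difference is given as a description, since Rasgrf1 passed the filter only through the adult libraries. Arhgef1, an exchange factor that Gna13 activates, read 2.38 and 1.60 in control and 18.1 and 16.7 at E18 (2.63 ± 0.18, adjusted p = 2.59e-05), and Kalrn, another exchange factor of small GTPases, was also higher (2.14 ± 0.18, adjusted p = 6.05e-05). The 4 effectors called with miR-1247 were all lower. They included Kcnj5, another channel subunit (21.9 and 22.6 FPKM in control, 8.83 and 11.2 in miR-1247, -1.09 ± 0.16, adjusted p = 0.0152, and up to 0.0814 without 1 library). Adcy1, a calmodulin-activated adenylyl cyclase, read 50.5 and 51.1 in control, 26.1 and 27.7 in miR-1247 and 82.7 and 86.2 at E18 (-0.89 ± 0.07 with miR-1247, adjusted p = 0.00243).

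Receptor kinases and arrestins, which desensitise receptors, split evenly, with 3 of 6 higher and 3 lower at E18 and none called with miR-1247. Grk6 and Arrb2 were higher (1.12 ± 0.16 log2, adjusted p = 0.000766, and 0.72 ± 0.15, adjusted p = 0.00406). Grk2 and Arrb1 were lower (-1.36 ± 0.06, adjusted p = 4.9e-06, and -1.10 ± 0.07, adjusted p = 1.77e-05). Of 20 chaperones, anchors and other regulators, 9 were higher and 9 lower at E18. Ric8a, a chaperone and exchange factor of alpha subunits, was at 10.0 and 6.74 FPKM in control and 30.5 and 28.5 at E18 (1.72 ± 0.18, adjusted p = 0.00016). Gpsm1, which binds Gi with GDP, was also higher (1.54 ± 0.15, adjusted p = 0.000129). With miR-1247, Unc119, a carrier of lipid-modified alpha subunits (0.68 ± 0.11, adjusted p = 0.0207), and the joint locus Gpsm3/Pbx2 (0.45 ± 0.08, adjusted p = 0.0239) were the 2 called genes of that list, both higher. Without 1 library their adjusted p reached 0.108 and 0.117.

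More of the listed receptors were called lower than higher at E18. Of 14 Gi/o-coupled receptors, 2 were higher and 9 lower at E18, and 3 were lower with miR-1247. The 9 include Adra2c, which averaged 0.234 FPKM at E18 and passed the filter only through the adult libraries. Adora1, the inhibitory adenosine receptor, read 75.6 and 70.0 FPKM in control, 33.1 and 31.7 in miR-1247 and 3.59 and 3.69 at E18. It was lower at E18 (-3.99 ± 0.09 log2, adjusted p = 3.06e-07) and with miR-1247 (-1.14 ± 0.09, adjusted p = 0.00274). Htr1d, a serotonin receptor, was lower in both as well (-2.63 ± 0.21, adjusted p = 5.02e-05, and -1.27 ± 0.21, adjusted p = 0.0201, with up to 0.106 without 1 library). Gabbr1, a GABA-B receptor subunit, and Grm3, a metabotropic glutamate receptor, were the 2 that were higher at E18 (0.59 ± 0.05, adjusted p = 8.7e-05, and 0.70 ± 0.16, adjusted p = 0.00624). These comparisons share the control libraries.

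Of 16 receptors coupled to Gs, Gq or G12, 5 were higher and 9 lower at E18, and 2 were lower with miR-1247. Opn4, the melanopsin of intrinsically light-sensitive RGCs, read 29.2 and 29.9 FPKM in control, 10.7 and 8.23 in miR-1247 and 3.21 and 1.61 at E18. It was lower at E18 (-3.21 ± 0.24 log2, adjusted p = 4.04e-05) and with miR-1247 (-1.55 ± 0.24, adjusted p = 0.0188, and up to 0.102 without 1 library). Vipr2, a Gs-coupled peptide receptor, read 13.4 and 14.2 in control, 10.0 and 8.69 in miR-1247 and 34.7 and 37.3 at E18. It was higher at E18 (1.32 ± 0.11, adjusted p = 6.65e-05) and lower with miR-1247 (-0.52 ± 0.11, adjusted p = 0.0382), a call lost with the replicate block (adjusted p = 0.066) and without any 1 library (adjusted p between 0.0825 and 0.144). The joint locus Adgrl2/Gm30382 was higher at E18 (1.48 ± 0.13, adjusted p = 9.18e-05). Adra1b was listed at 0 in both E18 libraries, beside 11.4 and 8.97 FPKM in control, and passed the filter only through the adult libraries. The same holds for Adrb1, which averaged 0.344 FPKM at E18, and both genes count among the 9 lower.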

How the data were processed

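The authors mapped reads to mm39 with HISAT2 and computed FPKM (Cufflinks, Cuffdiff), according to the submitters' processing notes; tool versions are not given in the sources used here. Every deposited FPKM value had 1e-05 added, which was subtracted. The authors also deposited log2 ratios of group means, used only as a check: all were within 0.0021 of ratios recomputed from the FPKM. Distinct loci of a gene name were summed, and 180 sets of names with the same loci were taken once, leaving 10162 features. No column of another series was present (0).

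The 9987 features whose 6-library mean reached 1 FPKM entered limma 3.58.1 (R 4.3.3) as log2(FPKM + 1), with 3 group means, a variance trend and Benjamini-Hochberg adjustment, two-sided, called at 0.05. The fit was tested on simulated data. Sequences were read with Python 3.11.15 from GRCm39, GENCODE vM39 and RefSeq, and tables were made with NumPy 2.4.6, pandas 2.3.3 and Matplotlib 3.10.9. The genes and pathway and marker lists were chosen with earlier results of these data known. All 36 genes are named; of each pathway list, the 2 called genes with the highest and the 2 with the lowest fold change. No pairing by replicate number was seen: correlations of deviations were -0.01, -0.00 and 0.00. With 2 libraries a group, this cannot show that the libraries were unpaired. Alternatives were 2 other pseudocounts (0.1 and 5), no filter or one of 5 FPKM, 2 rescalings, single loci, no variance trend, fits on 4 libraries, a replicate block, and leaving out each library.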

Additional observations from a re-analysis of the deposited data

How the results depend on the processing

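Between E18 and control, 25 or 26 of the 36 genes were called without any 1 library, and 24 of the 26 calls held under every setting and omission tried. With miR-1247, only the Rgs4 call did, and 25 of 32 did between E18 and miR-1247. The number of genes called with miR-1247, 5 in all, was 3 when the variance trend was dropped, 2 when the fit held just the 4 compared libraries, and 1 to 4 without 1 library. Genes called higher (1) were 2 with median ratio scaling, 0 with equal totals, 0 with no variance trend and 0 to 1 without 1 library. Genes called lower (4) were 7 with equal totals, 1 with 4 libraries and 1 to 4 without 1 library. Over all genes the 974 calls became 343 with no variance trend, 347 with 4 libraries and 121 to 242 without 1 library.

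In the wider pathway, calls with miR-1247 (11, of which 2 higher and 9 lower) were 5 with no variance trend, all 5 lower and 0 higher. Higher calls were 4 with a pseudocount of 5, with the filter of 5 FPKM or with median ratio scaling, and 1 with equal totals. Without 1 library there were 2 to 5 calls, 0 to 1 higher and 2 to 4 lower. Gnas (-0.03 log2, adjusted p = 0.422) and Gnao1 (-0.02, adjusted p = 0.634) reversed between E18 and miR-1247 with median ratio scaling, which moved the median gene from 0.19 to 0.01. Between E18 and control it moved from 0.16 to 0.02. The cause of these changes was not tested. With the replicate block, 26, 5 and 32 of the 36 genes were called in the 3 comparisons, as without it, while over all genes the calls with miR-1247 were 584. With 1 library of a group left, its spread was taken from the other groups. Read depth was unknown, and 2 libraries a group limit the precision.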
